A study of Mus musculus with 16 samples.

Results

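The 37 genes described here are mouse genes of macrophages and of antigen presentation, measured by bulk RNA-seq in the pituitary and taken from a fixed list of symbols. All 37 were among the 17362 genes in the table, and 36 were among the 14345 genes whose values averaged 1 or more over the 16 mice, which were the genes tested. Cd163 lay under that limit. The list holds the 3 chains of complement C1q, 4 genes of MHC class II presentation, 11 macrophage surface receptors, 6 leukocyte surface proteins and integrins, 7 genes of signalling adaptors, cytoskeleton and NADPH oxidase together with the transcription factor Spi1, and 6 lysosomal proteins.

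The pituitaries came from 16 female mice aged 27 weeks, 1 library per mouse, in 4 groups of 4. Controls carried the floxed oestrogen receptor gene (Esr1 fl/fl), and the Esr1 Nkx2.1-cre mutants carried the same floxed allele together with Cre, which removes Esr1 from cells with a history of Nkx2-1 expression. Mice of each genotype ate either standard chow (SD) or, for 17 weeks, a high-fat diet (HFD), on a mixed CD-1;129P2 background. The control SD mice were P356, P358, P359 and P383, the mutant SD mice P357, P381, P382 and P384, the control HFD mice P385, P390, P391 and P392, and the mutant HFD mice P339, P341, P387 and P388. Esr1 was 29.0 to 46.6 in control SD and 10.02 to 22.2 in mutant SD (log2 fold change -1.09, SE 0.25, limma adjusted p = 0.0409, up to 0.12 and lost in 10 of the 16 fits that leave out 1 mouse), whereas on HFD it was 23.6 to 43.4 in controls and 21.5 to 33.4 in mutants (log2 fold change -0.34, adjusted p = 0.696). Values are the authors' normalised abundances per transcript length, in which 1 unit stood for between 14.5 and 21.9 reads per kilobase.

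C1q opens the classical complement cascade and is made mainly by tissue macrophages. MHC class II molecules carry peptides to helper T cells, with Cd74 (the invariant chain) guarding the peptide groove and cathepsin S (Ctss) trimming it away. The pituitary holds resident macrophages around its vessels and among its hormone cells, and cells of this lineage depend on the receptor Csf1r and the transcription factor Spi1 (PU.1).

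2 features of these genes' promoters are shown because they belong to the MHC class II and PU.1 programmes. The mouse promoter table from RefSeq (GRCm38.p6) held 25 of the 37 genes, and the 250 bases before each start were searched on both strands. The Y box, ATTGG, lay in 12 of the 25 genes (48.0%) and in 37.5% of all 27025 genes of the table. Its longer form CTGATTGG, a search added after the first result, contains ATTGG and lay in 2 of the 25, H2-Aa and H2-Eb1, and in 4.4% of all genes. The ETS motif GAGGAA, which PU.1 binds, lay in 12 of the 25 genes (48.0%) and in 25.9% of all genes. A match of letters is a description and was not tested for binding. The stretches below lie upstream of H2-Aa at chr17:34287824-34287943 on the minus strand and of H2-Eb1 at chr17:34305747-34305866 on the plus strand, 120 bases each, with CTGATTGG in capitals.
H2-Aa: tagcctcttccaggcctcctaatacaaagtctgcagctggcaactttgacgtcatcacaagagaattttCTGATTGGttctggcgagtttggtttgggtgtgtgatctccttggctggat
H2-Eb1: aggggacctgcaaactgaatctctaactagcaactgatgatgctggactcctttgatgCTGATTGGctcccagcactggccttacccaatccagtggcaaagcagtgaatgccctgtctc
The stretches upstream of C1qb (chr4:136886201-136886320, minus strand), Ctss (chr3:95526582-95526701, plus strand) and Mrc1 (chr2:14229272-14229391, plus strand) show the ETS motif in capitals, read on the opposite strand in Mrc1.
C1qb: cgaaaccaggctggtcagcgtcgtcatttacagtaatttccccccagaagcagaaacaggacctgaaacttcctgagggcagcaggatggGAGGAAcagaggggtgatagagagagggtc
Ctss: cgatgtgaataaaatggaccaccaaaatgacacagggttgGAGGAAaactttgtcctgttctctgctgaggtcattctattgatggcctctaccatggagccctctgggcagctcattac
Mrc1: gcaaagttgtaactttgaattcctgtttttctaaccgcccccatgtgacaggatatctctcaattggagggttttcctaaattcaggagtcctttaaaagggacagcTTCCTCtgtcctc

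On SD, 34 of the 36 tested genes had higher mean values in Esr1 Nkx2.1-cre mutants than in controls, with a median log2 fold change of 0.71 against -0.01 over all genes tested. Mrc1, the mannose receptor of resident macrophages, was the 1 gene that rose past the test (log2 fold change 1.06, SE 0.23, limma adjusted p = 0.0336). Of all genes tested, 1.37% were called higher and 0.474% lower in that comparison, so 1 of 36 is close to the background. At an unadjusted p under 0.05, 14 of the 36 were higher and 0 lower, against 19.9% of all genes in either direction. The groups did not overlap in 10 of the 36 genes, all higher in mutants, where 6.09% of all genes did so in that direction and 4.5% in the other. Those 10 were C1qa, C1qb, C1qc, Cx3cr1, Cd14, Mrc1, Fcgr3, Ptprc, Itgam and Tyrobp.

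On HFD, all 36 tested genes had higher means in mutants, with a median log2 fold change of 0.47 against 0.02 over all genes, but 0 were called, as was 0% of all genes. At an unadjusted p under 0.05, 4 of the 36 were higher and 0 lower, against 10.18% of all genes in either direction. The count in either direction is thus close to the background, and the share of all genes that were higher is not given here. The mutants and controls overlapped in each of the 37 genes on HFD, where 2.96% of all genes did not overlap with mutants higher and 2.34% with mutants lower. Over the mean of both diets, a comparison added after the values were seen, 3 genes rose (Mrc1, Cx3cr1 and C1qa) and 0 fell, against 4.48% of all genes called higher and 2.06% called lower. On leaving out 1 mouse at a time, Mrc1 was called in all 16 fits, Cx3cr1 in 4 and C1qa in 2. The median of the 36 was then 0.58, against 0.00 for all genes. In bulk tissue, more cells of a type and more RNA per cell cannot be told apart.

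**Figure D1:**
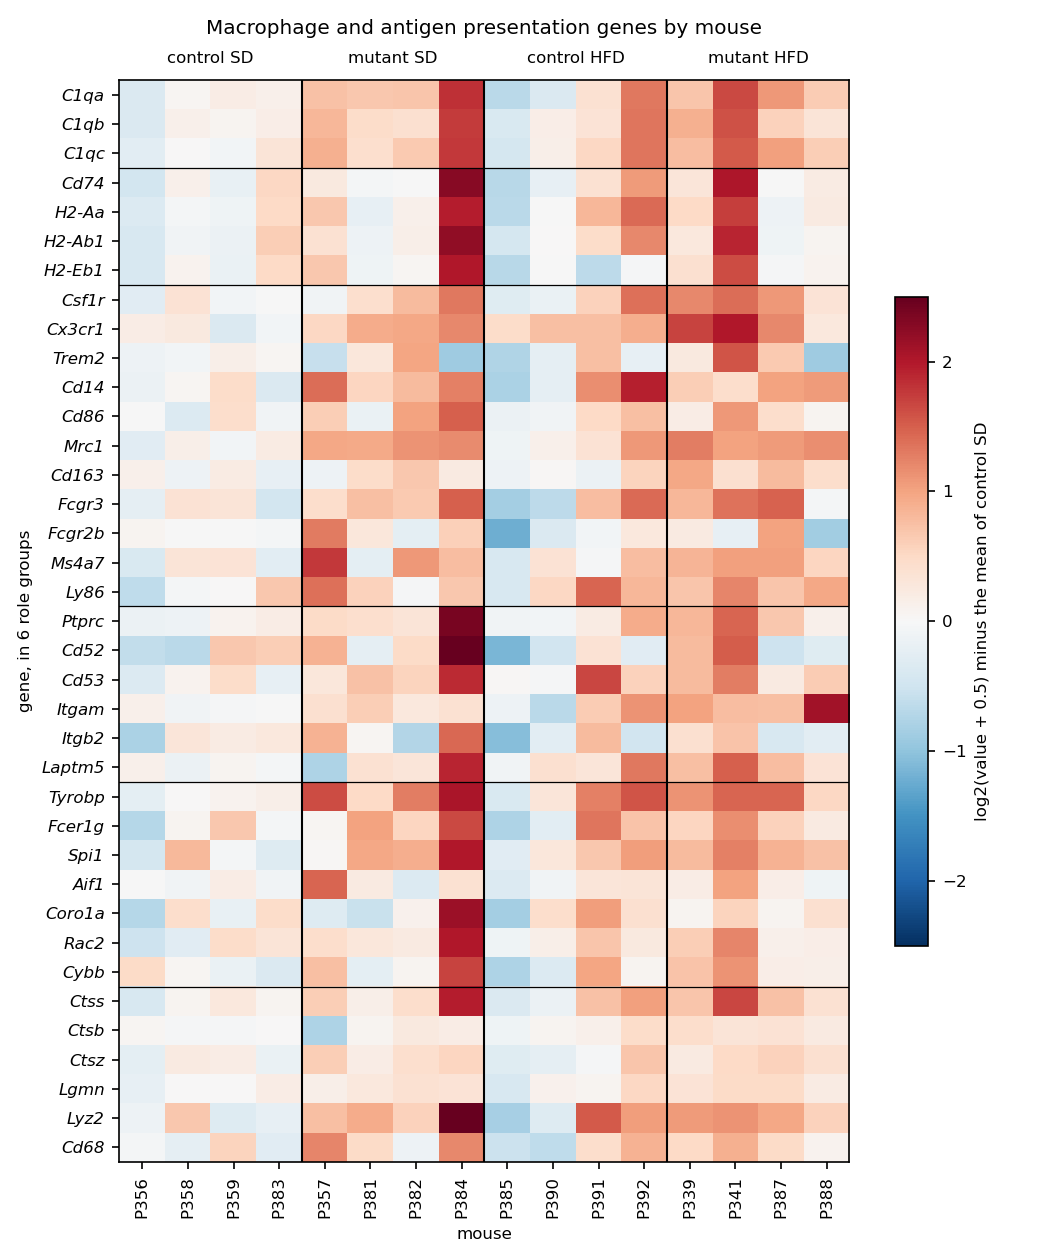
Heat map of the 37 genes (rows, in 6 role groups divided by lines) in the 16 mice (columns, by group), coloured by log2(value + 0.5) minus the mean of the 4 control SD mice, with the scale ending at 2.5 in either direction. P384 (mutant SD) was the highest of the 16 mice in 22 of the 36 tested genes, and P385 (control HFD) the lowest in 22. Over all genes tested P384 was the highest in 6.55%, and the share in which P385 was lowest is not given here.

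5 libraries stood apart in ways that touch these genes. P357 (mutant SD) and P392 (control HFD) had little posterior lobe and melanotroph RNA: the mean log2 value of 6 posterior lobe genes was 0.18 and 0.40 in these 2 mice and at least 1.75 in the other 14. P357 was also the highest of all mice in 19.11% of all genes tested, and in 4 of 36 members. Its values summed to 1335782 and 533 genes were at 0, against medians of 966116 and 175.5 over the 16 mice. P384 was the highest of all mice in 22 of 36 members and in 6.55% of all genes tested. P385 (control HFD) was the lowest in 22 of 36, and the share of all genes in which it was lowest is not given here. P384 and P341 (mutant HFD) were the 2 highest mice in 15 of 36 members (41.67%), and in 1.58% of all genes; this pair was picked after the values were seen. The mean log2 value of the 36 tested genes was 4.12 in P384, 3.85 in P341 and 2.18 to 3.46 in the other 14 mice.

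Complement C1q. The 3 chains lie side by side on chromosome 4 (mm10), from C1qb at 136880129-136886187 to C1qa at 136895917-136898803. C1qa was 12.5, 16.6, 18.3 and 17.7 in control SD and 27.2, 26.1, 26.4 and 58.5 in mutant SD. On HFD it was 9.92, 12.4, 21.0 and 40.9 in controls and 26.4, 51.4, 34.7 and 25.5 in mutants. Every mutant was above every control on SD, with P384 far above the other 3, while on HFD the control P392 lay inside the mutant range. The log2 fold change on SD was 0.98 (SE 0.37, adjusted p = 0.158, two-sided exact permutation p = 0.0286, the smallest that 4 against 4 allows). Over both diets C1qa rose by 0.92 on the log2 scale (SE 0.26, adjusted p = 0.0466). That call was lost in 14 of the 16 fits that leave out 1 mouse (adjusted p up to 0.108), and held without P357 and without P392. It was also lost without P341 and P384 (0.67, adjusted p = 0.152). C1qb and C1qc, the partner chains, went the same way, with log2 fold changes on SD of 0.86 and 0.93 and no overlap. Without P384 the 3 chains kept 65.8 to 71.5% of their log2 differences, and their median was 0.66.

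MHC class II. A single mutant on each diet, P384 on SD and P341 on HFD, was far above the others in Cd74 and H2-Aa. Cd74 was 98.9, 148, 120 and 193 in control SD and 161, 131, 134 and 658 in mutant SD. The HFD controls had 83.8, 118, 178 and 285 and the HFD mutants 167, 553, 135 and 157. P384 and P341 stood apart, and the other 6 mutants, at 131 to 167, lay inside the range of the 8 controls. The log2 fold change was 0.61 on SD (SE 0.53, adjusted p = 0.535) and 0.06 without P384 (SE 0.45). On HFD it was 0.49 (SE 0.53, adjusted p = 0.816) and 0.03 without P341. H2-Aa, the alpha chain of I-A, was 46.2, 56.4, 54.6 and 83.6 in control SD and 94.5, 50.9, 64.1 and 231 in mutant SD. On HFD it was 36.6, 58.7, 104 and 158 in controls and 83.0, 195, 53.6 and 68.7 in mutants. P384 and P341 were again highest, followed by the control P392. The medians of the 4 genes fell from 0.65 to 0.17 on SD without P384, and from 0.36 to -0.08 on HFD without P341.

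H2-Eb1, the I-E beta chain, parted from the other class II genes in 2 control HFD mice. The ratio of H2-Eb1 to H2-Aa was 0.419 in P391 and 0.426 in P392, and 1.07 to 1.29 in the other 14 mice. The ratio of H2-Ab1, the I-A beta chain, to H2-Aa was 0.513 to 0.791 in all 16, with P391 lowest. H2-Eb1 shares a near-identical stretch of 168 bases with H2-Ab1, and none with Gm20513, which overlaps it on the other strand. On HFD H2-Eb1 had the largest fold change of the 4 genes, 0.87 (SE 0.42, adjusted p = 0.499) with these 2 mice among the 4 controls.

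**Figure D2:**
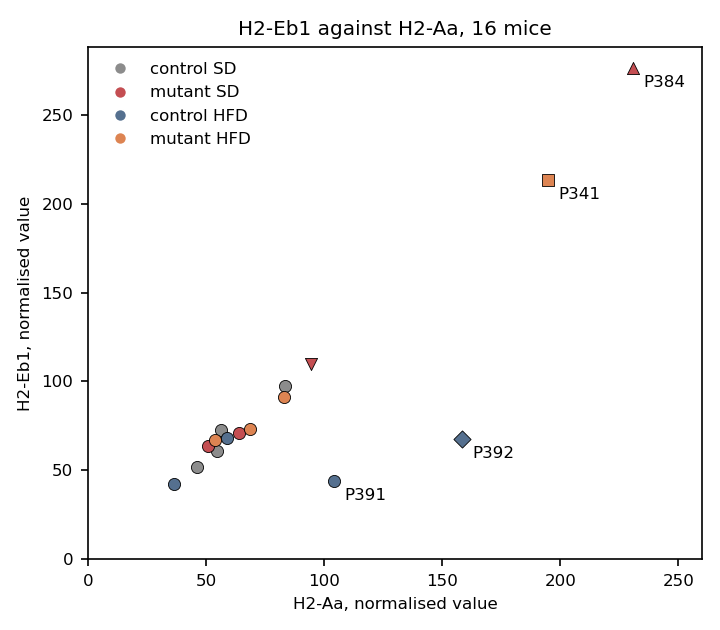
H2-Eb1 (vertical) against H2-Aa (horizontal), normalised values on linear axes, 1 point per mouse coloured by group. 14 mice fall along one line with ratios of 1.07 to 1.29, while P391 and P392 lie below it at 0.419 and 0.426.

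Macrophage surface receptors. Mrc1 (chromosome 2, 14229392-14332057, plus strand) was 0.665, 1.05, 0.842 and 1.13 in control SD and 2.26, 2.22, 2.57 and 2.72 in mutant SD. Among HFD mice it was 0.809, 1.03, 1.32 and 2.504 in controls and 2.93, 2.35, 2.47 and 2.68 in mutants. All 8 mutants lay between 2.22 and 2.93, and 7 of the 8 controls at or below 1.32, with P392 the exception. On SD the exact permutation p was 0.0286, and without P384 the log2 fold change was 1.01 (SE 0.26, adjusted p = 0.0695). On HFD the log2 fold change was 0.77 (SE 0.23, limma adjusted p = 0.259). Without P392 it was 1.01 (SE 0.19, limma adjusted p = 0.00678), in a fit that called 4.55% of all genes, against 0% with all mice. That fit leaves out the control that lay within the mutant range, so it is not separate evidence of a difference on HFD. Over both diets it was 0.91 (SE 0.16, adjusted p = 0.00567), and 0.91 (adjusted p = 0.0306) without P341 and P384. Leaving out any 1 mouse, the SD call was lost for P358, P359, P383, P357, P381, P382, P384 or P341, with adjusted p between 0.0509 and 0.1 and log2 fold changes between 1.01 and 1.13.

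Cx3cr1, the fractalkine receptor of microglia-like and resident macrophages, was 2.74, 2.88, 1.70 and 2.20 in control SD, 3.54, 4.90, 5.09 and 5.995 in mutant SD, 3.41, 4.30, 4.29 and 4.85 in control HFD, and 8.62, 10.9, 5.999 and 2.89 in mutant HFD. Control SD was the lowest group and overlapped no other, though its highest mouse (2.88) lay just under P388 of mutant HFD (2.89). The mutant HFD mice spread from 2.89 to 10.9, over the ranges of mutant SD and control HFD. The log2 fold change was 0.90 on SD (SE 0.29, adjusted p = 0.115), 0.57 on HFD (SE 0.29, adjusted p = 0.537) and 0.73 over both diets (SE 0.21, adjusted p = 0.0461). The call over both diets was lost in 12 of the 16 fits that leave out 1 mouse (adjusted p up to 0.0989), and held without P356, P357, P388 or P392. Its SD value was 0.80 without P384.

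Csf1r, the receptor for CSF1 and IL-34, was 3.75, 6.13, 4.44 and 4.61 in control SD and 4.38, 6.37, 8.403 and 12.5 in mutant SD. On HFD it was 3.70, 4.12, 7.17 and 12.9 in controls and 11.46, 13.04, 10.4 and 6.07 in mutants. The groups overlapped on both diets, and the log2 fold changes were 0.61 on SD (SE 0.36, adjusted p = 0.347) and 0.63 on HFD (SE 0.36, adjusted p = 0.579). Of the other receptors, the lipid-sensing receptor Trem2 was the 1 with a negative value on SD (-0.05), and it was lowest of mutant SD in P384 at 0.694. Cd14, the lipopolysaccharide co-receptor, and Ms4a7 had log2 fold changes on SD of 1.00 and 0.85, and the co-stimulator Cd86 0.74, none past the adjusted threshold. The immunoglobulin receptors Fcgr3 and Fcgr2b had 0.84 and 0.48 and share a near-identical stretch of 512 bases, and Ly86 had 0.65. Cd163, the haemoglobin scavenger receptor, was 0.0670 to 0.256 in control SD, 0.0981 to 0.548 in mutant SD, 0.0927 to 0.465 in control HFD and 0.370 to 0.780 in mutant HFD, where 3 reads per kilobase are worth 0.137 to 0.206.

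Leukocyte surface proteins and integrins. Cd52, a small GPI-anchored antigen, was 3.58, 3.40, 9.40 and 8.95 in control SD and 10.9, 4.79, 8.10 and 38.1 in mutant SD. P384 stood alone, and the log2 fold change fell from 0.94 to 0.37 without it. Ptprc (CD45), the phosphatase carried by all leukocytes, was 0.929 to 1.31 in control SD and 1.71, 1.64, 1.48 and 7.78 in mutant SD. The groups did not overlap, yet P384 was far from the rest, and the log2 fold change of 0.90 (SE 0.41, adjusted p = 0.235) was 0.41 without P384. Cd53, Itgb2 and Laptm5 were also highest in P384, and Laptm5, a lysosomal regulator of antigen receptors, turned from 0.45 to -0.03 without it. Itgam (CD11b), which shares 3454 bases with Gm49368, was instead highest in P388 of mutant HFD, at 4.15 against 1.33 to 1.67 in the other 3.

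Adaptors, cytoskeleton, NADPH oxidase and Spi1. Tyrobp (DAP12), the adaptor of Trem2, was 4.87, 5.88, 6.22 and 6.46 in control SD and 19.1, 8.47, 14.9 and 25.7 in mutant SD. The HFD values were 4.37, 7.28, 14.6 and 18.3 in controls and 13.3, 16.9, 16.8 and 8.56 in mutants. The SD groups did not overlap and the HFD groups did. Its SD log2 fold change, 1.37 (SE 0.38, adjusted p = 0.0725), was the largest of the 36, and it was 1.14 without P384. Spi1 was 0.682, 2.33, 1.06 and 0.788 in control SD and 1.15, 2.65, 2.53 and 5.98 in mutant SD. Among HFD mice Spi1 was 0.816, 1.47, 2.08 and 2.84 in controls and 2.30, 3.38, 2.44 and 2.17 in mutants. P384 was highest and the groups overlapped on both diets. The log2 fold changes were 0.98 on SD (SE 0.39, adjusted p = 0.176) and 0.48 on HFD (SE 0.39, adjusted p = 0.726). Coro1a and Rac2, of the leukocyte cytoskeleton, were 16.1 and 5.02 in P384 and at most 3.57 and 1.37 in the other 3 mutant SD mice. Fcer1g and Cybb were highest in P384 as well, whereas Aif1 was highest in P357, at 18.5.

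Lysosomal proteins. Ctss was 8.07, 11.45, 13.1 and 11.4 in control SD and 16.8, 12.05, 14.8 and 43.7 in mutant SD. The HFD values were 8.30, 9.70, 18.4 and 22.7 in controls and 17.7, 35.4, 18.5 and 14.3 in mutants. P384 and P341 led, as they did in class II, and the SD log2 fold change went from 0.79 (SE 0.39, adjusted p = 0.268) to 0.40 without P384. Cd68, a macrophage lysosomal glycoprotein, was 4.73, 4.09, 7.46 and 3.92 in control SD and 12.1, 7.02, 4.41 and 11.97 in mutant SD. Among HFD mice Cd68 was 3.20, 2.97, 6.80 and 9.35 in controls and 7.13, 9.53, 6.97 and 5.23 in mutants. The groups overlapped on both diets (log2 fold changes 0.70 and 0.46, adjusted p = 0.288 and 0.718). Ctsb, a cathepsin that many cells express, had the highest level per length of this group and differed little: 229, 215, 215 and 222 in control SD and 129, 232, 263 and 251 in mutant SD, where P357 was low. The HFD values were 204, 232, 240 and 303 in controls and 299, 275, 284 and 257 in mutants. Its log2 fold change was -0.06 on SD (SE 0.18), and 0.17 without P357. Ctsz and Lgmn had 0.43 and 0.29 on SD. Lyz2, macrophage lysozyme, was 80.1 in P384 and 13.2 to 17.1 in the other 3 mutant SD mice, and it shares 1264 bases with Lyz1.

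**Figure D3:**
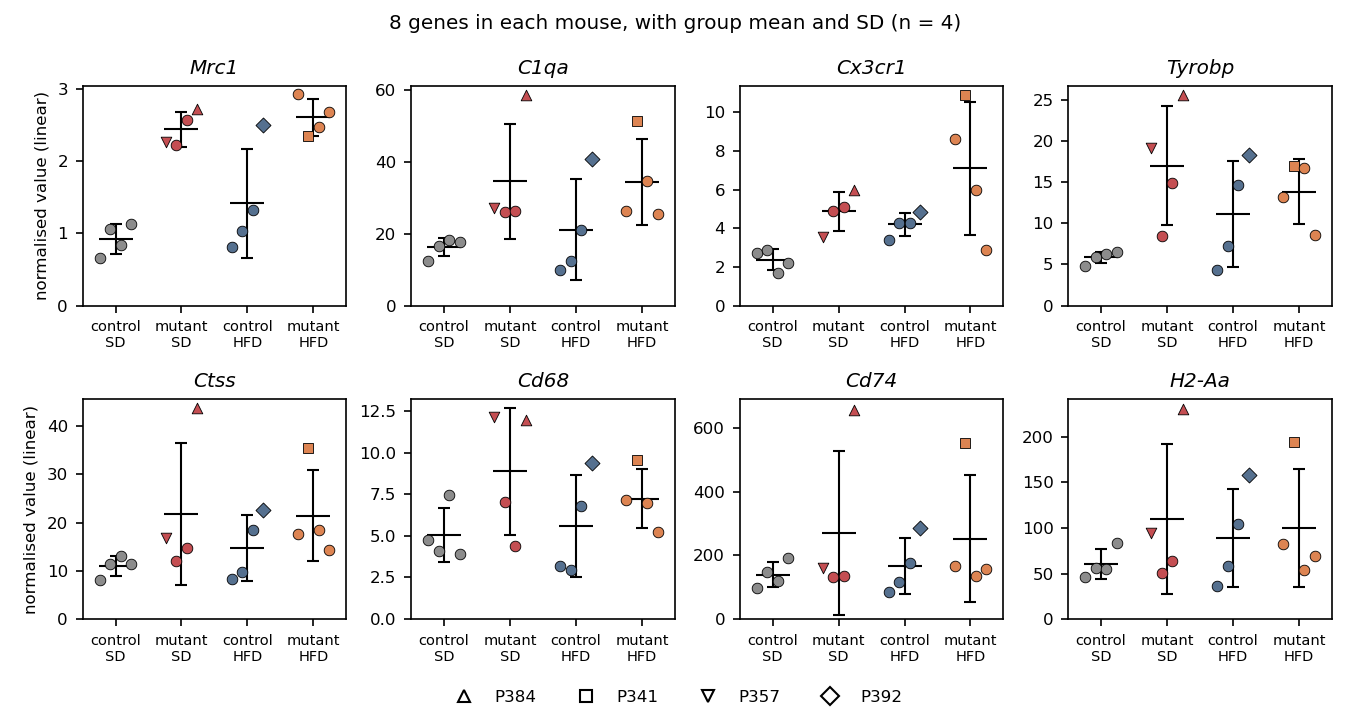
Values of 8 genes in each mouse by group (linear vertical axes from 0, normalised value per length), with the group mean and SD (n = 4); an upward triangle marks P384, a downward triangle P357, a square P341 and a diamond P392. Mrc1 is above all SD controls in each SD mutant and close in the 4, at 2.22 to 2.72, while Cd74 and H2-Aa are high in P384 and P341.

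Without P384, 33 of the 36 genes were still positive on SD, with a median of 0.43, and 32 of the 36 differences were smaller. The receptors kept a median of 0.63, from 0.79, and class II 0.17, from 0.65. 0 genes were called, and of all genes tested 57 were called without P384 against 264 with it, so the loss was not limited to these genes. Nor was it particular to P384: of all genes, 33 were called without P382, 36 without P383 and 57 without P381, but 826 without P356. On HFD without P341 the median was 0.31, with 31 of 36 positive. The HFD median fell furthest, from 0.47 to 0.23, without the control P385, the lowest mouse in 22 members. All 36 differences were then smaller, 30 were positive, and H2-Aa, H2-Ab1, Cd14, Ly86, Cd53 and Coro1a turned negative (-0.36 to -0.01). Without P392, the control that lay among the mutants, the HFD median was 0.66, all 36 were positive and 3 rose (C1qa, Mrc1 and Ctsz), while 4.55% of all genes were called. Without P357, 36 of the 36 were positive on SD, with a median of 0.80 and 0 called, against 0.934% of all genes.

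**Figure D4:**
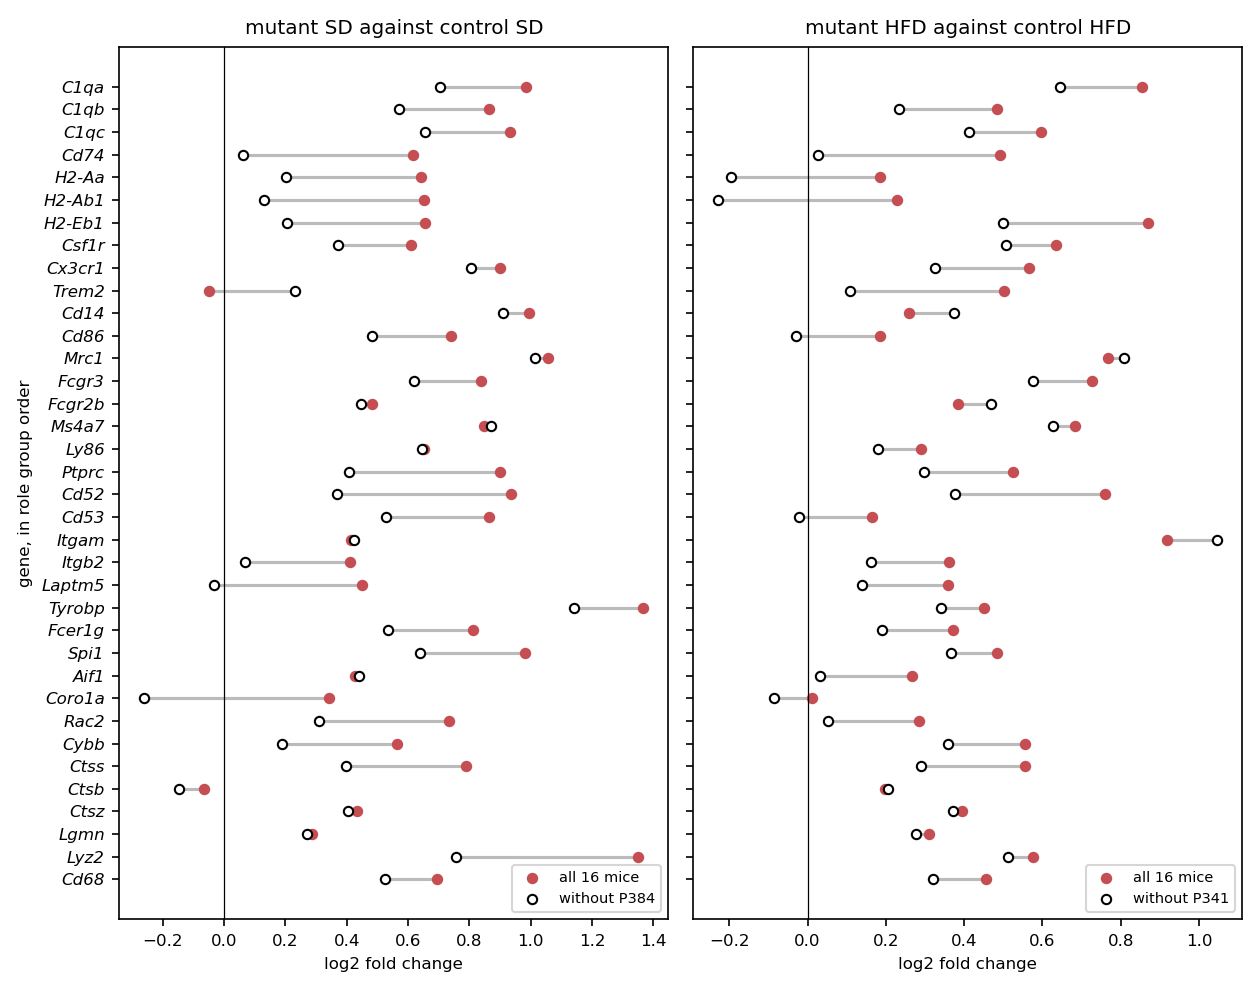
Log2 fold change of the 36 tested genes for mutant against control on SD (left) and HFD (right), with all 16 mice (filled) and without P384 or P341 (open), genes in role group order. Without P384 the 4 class II genes fall to 0.06 to 0.21, and Mrc1 goes from 1.06 to 1.01.

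Diet and these genes. In mutants, HFD against SD gave 0 called genes of 36 and 0% of all genes, with a median of -0.05. In controls it gave 0 of 36 and 0% of all genes, with a median of 0.25 and 30 genes positive, and the median was 0.03 without P392 and 0.48 without P385. The groups did not overlap, with HFD higher, in Itgam for the mutants (1.88% of all genes) and in Cx3cr1 for the controls (1.25% of all genes). The difference between the genotype effects on the 2 diets was called in 0 of 36 and in 0% of all genes, with a median of -0.24, which was -0.01 without P384 and -0.45 without P341. That a gene passed on SD and not on HFD was therefore not shown to be a difference between the diets.

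Other genes that moved with them. In P384 and P341, the class II transactivator Ciita was 6.70 and 5.99 and at most 2.34 in the other 14 mice, and the chemokines Cxcl9 and Ccl8 were 26.6 and 9.11, and 38.2 and 19.9, against at most 1.96 and 2.46. Igkc, an antibody light chain, was 259 and 123 and at most 26.1 in the others. These genes were named after their values were seen. Among 11 other class II pathway genes, 7 were tested and 1 (H2-DMa) was called over both diets, log2 fold change 0.63 (adjusted p = 0.045). Among 13 MHC class I pathway genes 0 were called, with a median of 0.02. Among 16 macrophage growth factors and chemokines, 10 were tested and 1 rose over both diets, Csf1, the ligand of Csf1r (0.73, adjusted p = 0.0431). Of 9 B and plasma cell markers, 4 were tested and Igkc (2.84, adjusted p = 0.0128) and Jchain (1.48, adjusted p = 0.0445) rose. Their summed level was 10.9 to 12.2 in control SD, 28.2 to 345 in mutant SD, 6.98 to 11.2 in control HFD and 9.71 to 146 in mutant HFD, and Ms4a1 and Pax5 were under 1 in all 16 mice, Pax5 being 0 in 3.

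Of 8 markers of border and perivascular macrophages, 5 were tested and 3 rose over both diets: Mgl2 (1.48, adjusted p = 0.0103), Stab1 (0.63, adjusted p = 0.0139) and Cbr2 (0.60, adjusted p = 0.0281). Over both diets 4.48% of all genes tested were called higher. All 5 tested genes were positive on SD, while on HFD 3 were positive and 2 negative (median 0.49). The summed level of the list was 25.6 to 30.4 in control SD and 41.2 to 61.5 in mutant SD, which did not overlap. It was 27.5 to 41.4 in control HFD and 44.2 to 49.7 in mutant HFD. The mean log2 values of the list overlapped on HFD, at 1.94 to 2.97 in controls and 2.70 to 2.96 in mutants. Of 7 microglia markers, 6 were tested, 0 were called and all 6 were positive. Of 8 endothelial markers tested, 5 rose over both diets (Pecam1, Cdh5, Plvap, Tek and Eng, 0.43 to 0.63), and their summed level was 124 to 148 in control SD, 185 to 240 in mutant SD, 114 to 235 in control HFD and 181 to 209 in mutant HFD. The pericyte gene Rgs5 rose by 1.21 on the log2 scale (adjusted p = 0.0162), but its list of pericyte and fibroblast genes was mixed. On SD 3 of the 6 tested genes of that list were positive and 3 negative (median -0.01), and on HFD 4 and 2. Aldh1a2, of the stem and folliculostellate list, rose by 0.51 (adjusted p = 0.0248). All 5 tested genes of that list were positive on SD, while on HFD 3 were positive and 2 negative (median 0.05). Tgfb1 (0.59, adjusted p = 0.0333) and Col25a1 rose too, the latter by 1.00 on SD (adjusted p = 0.0321). Col25a1 belongs to the posterior lobe list, in which 4 of the 6 genes were negative on SD (median -0.66) and all 6 positive on HFD (median 0.41). In 5 haemoglobin and erythroid genes 0 were called and the summed level was 581 to 3252 in control SD and 2254 to 4662 in mutant SD. Of the 8 neutrophil and T cell genes tested, 0 were called. On leaving out 1 mouse at a time, Mgl2, Stab1, Igkc, Pecam1, Cdh5 and Rgs5 were called over both diets in all 16 fits. The calls were lost in 13 of 16 fits for H2-DMa, Tek and Eng, in 12 for Csf1 and Jchain, in 11 for Tgfb1, in 8 for Plvap, in 4 for Cbr2, in 3 for Aldh1a2 and, on SD, in 6 for Col25a1, with the direction kept in each. Without both P341 and P384, Mgl2, Stab1 and Igkc were still called over both diets (adjusted p = 0.0429, 0.0338 and 0.0183). Pecam1, Cdh5 and Rgs5 were then not called (adjusted p = 0.0728, 0.0646 and 0.0599). The part of these other cell types in the values of the 37 genes was not tested.

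**Figure D5:**
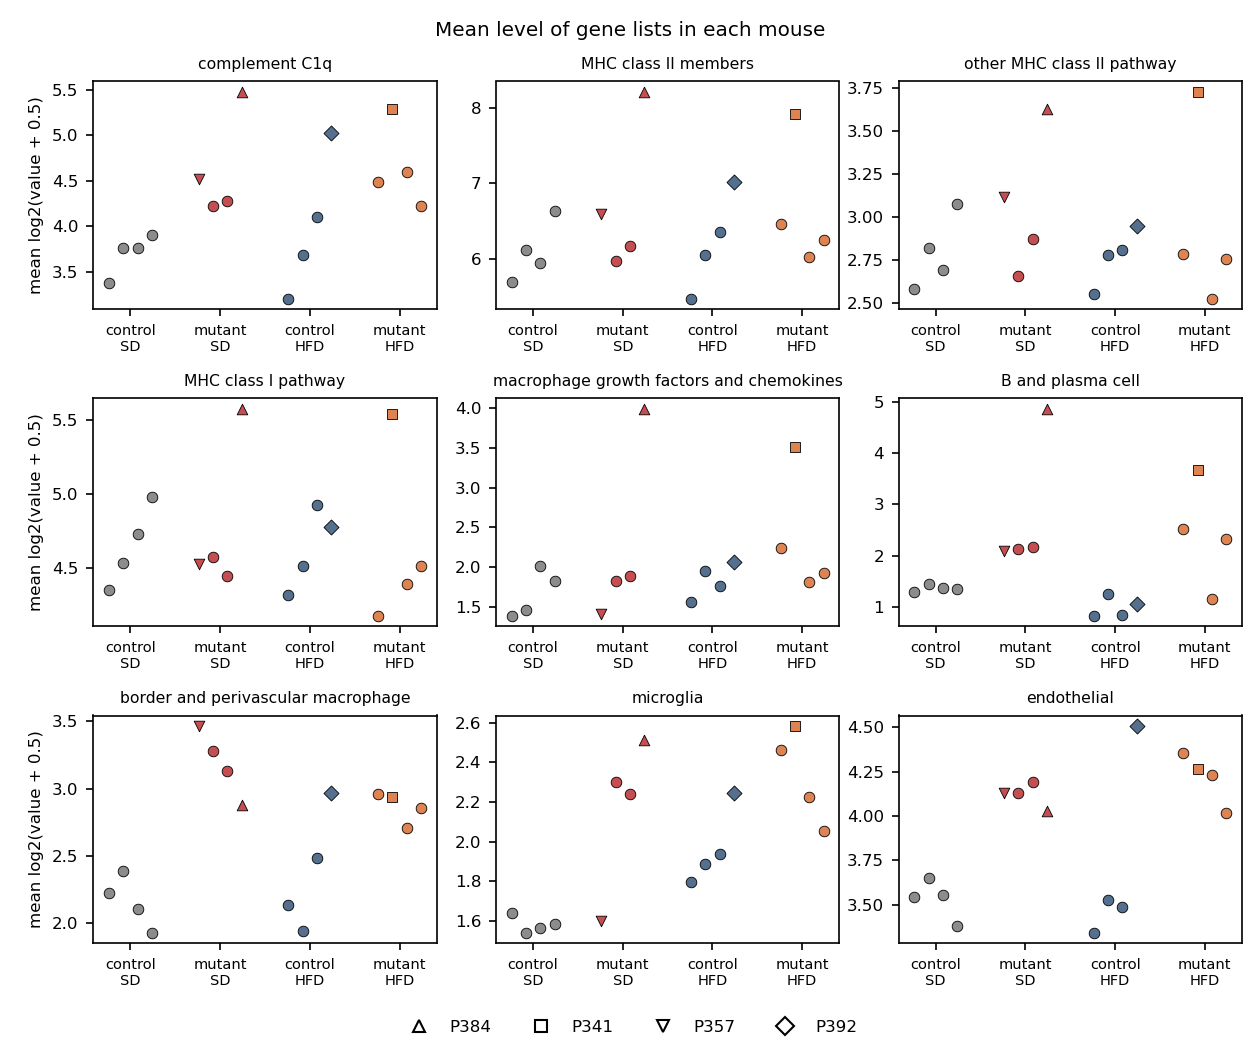
Mean log2(value + 0.5) of 9 gene lists (vertical axes, each with its own scale, not from 0) in each mouse by group; the marked mice are P384, P341, P357 and P392. P384 and P341 stand above the other mutants in class II, class I and chemokine genes, while in border macrophage and endothelial genes all 4 mutant SD mice lie above the control SD mice.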

How the data were processed

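Per the labels and the study's methods, total RNA of 16 pituitaries was prepared with NEBNext Ultra II and sequenced on a NovaSeq, and the authors quantified reads with kallisto against the mm10 transcriptome and normalised them with sleuth; versions, annotation and strand are not given in the sources used here. The deposited values were treated as a normalised signal per transcript length, not as counts. The value of 1 read was fitted in each mouse to the low values among 1457 single-transcript genes of at least 1500 bp. These were 77 to 133 values per mouse. Of them, 81.3 to 93.7% were whole reads within 0.15, a share that the fit itself favours. The fitted value of 1 read set the depth given.

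The test was limma (version 3.58.1, R 4.3.3) on a log2 scale after a pseudocount of 0.5 (eBayes with trend, all 4 groups in 1 fit, Benjamini-Hochberg within a comparison, threshold 0.05) over the 14345 genes whose 16 values averaged 1 or more, and the fit was tested on simulated data. Fold changes on this scale understate those of low genes. Single genes also got a two-sided exact permutation test (scipy 1.17.1). Near-identical stretches were at least 100 bp at 90% identity (BLAST 2.17.0). Besides those given above, Csf1r shared 873 bases with Hmgxb3, Ctsb 774 with Fdft1, and Rac2 up to 202 with 214 genes. Cd163, Ms4a7, Cd52 and Itgb2 shared stretches of 131 to 228 bases. The annotated span of Cx3cr1 overlaps Csrnp1, Gorasp1 and Xirp1 on its own strand. The part of such sequence in the values was not tested. No sample pairing is given in the labels; separate mice are the replicates.

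The members, marker lists and tests were chosen with earlier results of these data known, so no p is given for a list. Genes given mouse by mouse were those called in any comparison, the highest member of each role group, and Ctss, Cd68, Csf1r, Cx3cr1, Mrc1, H2-Aa and Spi1; other genes named in the report's member paragraphs were added after their values were seen. Outside the members, genes of the marker lists called in any comparison and Esr1 were named. Of the 17362 gene IDs, 17351 matched a symbol. Positions are from GENCODE M21 (mm10).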

Additional observations from a re-analysis of the deposited data

Results flagged for a closer look

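By a Dixon ratio, a mouse was far from the other 3 of its group in 17 of 176 comparisons, and 10 of the 17 were P384 and 3 were P341. About 8.8 would be expected at 1 in 20 for independent normal values. Single genes were compared on the linear scale, where values need not be normal, and list means on the log2 scale. The count of 17 is therefore not shown to be an excess. In mutant SD, P384 was high in C1qa (58.5), Cd74 (658), H2-Ab1 (183), Ptprc (7.78), Coro1a (16.1), Rac2 (5.02), Ctss (43.7) and Lyz2 (80.1). P384 was also high in the mean log2 value of the leukocyte surface and integrin genes (3.12, others 1.54 to 1.71) and of the lysosomal genes (5.94, others 5.04 to 5.14). In mutant HFD, P341 was high in Cd74 (553), H2-Ab1 (147) and H2-Eb1 (213), and P388 in Itgam (4.15). In control SD, P356 was low in the mean of the 36 tested members (2.40, others 2.72 to 2.76) and in Itgb2 (1.22, others 2.92 to 3.14), and P358 was high in Lyz2 (14.2, others 6.81 to 7.85). Genes of the list share mice and are not independent.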

How the results depend on the processing

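Depth limits the lowest genes: 3 reads per kilobase were worth 0.137 to 0.206, near the levels of Cd163. Groups of 4 allow no exact p under 0.0286. The cause of each change below was not tested unless the setting's own construction gives it.

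Scaling to the sum of all genes but Prl moved the SD median of all genes from -0.01 to -0.13 and left 117 genes called (66 higher and 51 lower, 56.4% higher, against 196 and 68, 74.2%), with 0 members called on SD and 1 over both diets. On SD, 0 members were also called with a mean of at least 5 (151 genes of all; Mrc1 is left out by construction), with animal numbers, split into 2 ranges, as a covariate, without P341 and P384 (8 genes of all) and at a threshold of 0.01 (20 genes of all). Array weights called 4 members on SD, 3 on HFD and 14 over both diets, and 2017 genes in all on SD. With array weights, the share of all genes called on HFD and over both diets is not given here. With only the groups compared, 2 members were called on SD. Without P357 and P392 the calls were 2 on SD (961 genes of all), 5 on HFD and 15 over both diets. In that setting 7.42% of all genes were called on HFD and 18.6% over both diets, so calls rose well beyond the members. Without P357, P384 and P392 the calls were 6 on HFD and 8 over both diets, with an interaction median of 0.37. There, 454 genes of all were called on SD, and the shares on HFD and over both diets are not given here. Over both diets 1 member was called with no filter, with a mean of at least 5, without P341 and P384, and at a threshold of 0.01.

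Leaving out 1 mouse at a time gave 0 to 2 members called on SD, 0 to 3 on HFD and 1 to 13 over both diets, and 33 to 826 genes of all on SD, the lowest without P382 and the highest without P356. The 3 on HFD and the 13 over both diets came without P392, where 4.55% and 13.5% of all genes were called. The SD median of the members ranged from 0.43 (without P384) to 0.89, the HFD median from 0.23 (without P385) to 0.66, the median over both diets from 0.44 to 0.71, the diet median from -0.21 to 0.26 in mutants and from 0.03 to 0.48 in controls, and the interaction median from -0.45 to -0.01. These moved by less than 1 SD (0.444) of the mean over members. That limit is larger than the diet and interaction medians themselves and close to the HFD median of 0.47, so it cannot show that they are stable. P384 was the highest mouse in 21 to 22 members under every scaling.

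Single genes kept direction and side of the threshold in 2985 of their alternative values, gained a call in 67, lost one in 46 and changed sign in 55, which are given here as log2 fold changes. On SD, array weights gave Trem2 0.211, Itgb2 -0.029 and Ctsb 0.147, and the covariate gave Trem2 0.042. Without P357 and P392, Trem2 was 0.126 and Ctsb 0.171. Without P357, P384 and P392, Cd74 was -0.031, H2-Aa -0.039, H2-Eb1 -0.028, Trem2 0.635, Itgb2 -0.336, Aif1 -0.064, Coro1a -0.224, Cybb -0.091 and Ctsb 0.164. Without P341 and P384, Trem2 was 0.232, Laptm5 -0.033 and Coro1a -0.260. On HFD, Coro1a was -0.008 with median-of-ratios scaling, -0.070 with quantile normalization, -0.004 with a pseudocount of 1 and -0.053 with array weights, and Aif1 was -0.071 with the covariate. Without P341 and P384, the HFD values were H2-Aa -0.196, H2-Ab1 -0.228, Cd86 -0.029, Cd53 -0.021 and Coro1a -0.086. Over both diets, Ctsb was -0.034 with quantile normalization and -0.001 with the scaling that leaves out Prl, Itgb2 -0.026 and Coro1a -0.084 without P357, P384 and P392, and H2-Ab1 -0.049 and Coro1a -0.173 without P341 and P384.

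Genes that changed sign on leaving out 1 mouse ranged, on SD, from -0.393 to 0.232 for Trem2, -0.033 to 0.860 for Laptm5, -0.260 to 0.640 for Coro1a and -0.170 to 0.171 for Ctsb. On HFD the ranges were -0.196 to 0.529 for H2-Aa, -0.228 to 0.527 for H2-Ab1, -0.178 to 0.737 for Cd14, -0.029 to 0.352 for Cd86, -0.042 to 0.574 for Ly86, -0.035 to 0.534 for Cd53 and -0.358 to 0.276 for Coro1a. Over both diets Coro1a ranged from -0.124 to 0.326. The comparison over both diets, the setting without P341 and P384, and the leaving out of mice for genes outside the 37 were added after the values were seen, and the other settings that leave out 2 or 3 mice name libraries that stood apart in earlier results of these data. Single genes were not recomputed for the diet comparisons and the interaction, for which no gene's fold change is given; the counts and medians of those comparisons were.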
